A study of Homo sapiens with 24 samples.

Results

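Glycolysis and pentose phosphate genes were followed through 8 conditions of TNBC cells, as 31 genes fixed by symbol: the glucose carriers SLC2A1 and SLC2A3, the enzymes from hexokinase to lactate dehydrogenase with their regulators, the lactate carriers SLC16A1 and SLC16A3, and 6 enzymes of the pentose phosphate pathway. Each of the 31 symbols was found once in each of the 4 deposited tables, which list 19283 genes for Hs578T, 18248 for HCC70, 60651 for the KIF20A sg1 experiment and 23792 for the KIF20A OE experiment. The series asked which genes set breast cancer stem-like cells (BCSCs) apart and what KIF20A, a mitotic kinesin, does in TNBC cells, and it reported an OXPHOS shift for KIF20A, so OXPHOS subunits are given here beside the glycolysis genes.

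Poly-A RNA was sequenced from 24 libraries, 3 for each condition. Wild-type Hs578T and HCC70, both established TNBC lines, were sorted into BCSCs (CD24-CD44+ and ALDH+) and non-BCSCs that lacked both marks. The line labelled MDA-MB-231, another established TNBC line, carried control sgRNA (sgCtrl) or 1 sgRNA against KIF20A (sg1, labelled a knockdown) in one experiment, and an empty vector (EV) or KIF20A overexpression (OE) in another. No drug or time course was compared. Each experiment had its own deposited table and was taken as its own batch, which the sample titles do not name. A sgRNA result here rests on 1 guide, and virus-infected cells were selected with puromycin. Because each condition is a bulk culture or a sorted pool, fewer cells of a kind and less RNA per cell cannot be told apart.

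Glycolysis carries glucose to pyruvate in the cytosol, with a small gain of ATP and NADH, and lactate dehydrogenase returns NAD+ by turning pyruvate into lactate. The pentose phosphate pathway leaves glycolysis at glucose 6-phosphate, and gives NADPH and ribose for nucleotides. Many glycolysis genes are known targets of the hypoxia-inducible factors (HIF), which bind short motifs with the core ACGTG or GCGTG, and tumor cells are known for using glycolysis in the presence of oxygen.

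Promoters are shown for the 4 genes that fell in Hs578T BCSCs and held ACGTG, to show the letters of the HIF core motif among the genes that passed the test there. RefSeq promoters (GRCh38.p14) matched 28 of the 31 members. SLC2A3, PFKFB2 and SLC16A1 had no entry. The 250 bases before each start were searched on both strands for ACGTG and GCGTG, with overlapping matches counted, so CACGTG counts as 2 matches. The sequences run 5′ to 3′ on the strand of the gene, which is the plus strand for all 4, and capitals mark the matches. HK2 is at chr2:74833877-74834126, ALDOA at chr16:30064029-30064278, PGK1 at chrX:78103998-78104247 and LDHA at chr11:18394313-18394562.
HK2: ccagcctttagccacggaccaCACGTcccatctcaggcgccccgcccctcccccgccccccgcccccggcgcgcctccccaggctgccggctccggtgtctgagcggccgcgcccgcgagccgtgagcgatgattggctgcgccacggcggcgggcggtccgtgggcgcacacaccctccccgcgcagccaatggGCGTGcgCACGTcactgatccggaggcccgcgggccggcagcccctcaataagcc
ALDOA: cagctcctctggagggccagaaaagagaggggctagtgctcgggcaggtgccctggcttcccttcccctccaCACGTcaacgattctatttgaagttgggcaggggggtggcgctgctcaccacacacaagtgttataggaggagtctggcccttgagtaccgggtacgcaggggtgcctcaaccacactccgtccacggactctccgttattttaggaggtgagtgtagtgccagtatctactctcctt
PGK1: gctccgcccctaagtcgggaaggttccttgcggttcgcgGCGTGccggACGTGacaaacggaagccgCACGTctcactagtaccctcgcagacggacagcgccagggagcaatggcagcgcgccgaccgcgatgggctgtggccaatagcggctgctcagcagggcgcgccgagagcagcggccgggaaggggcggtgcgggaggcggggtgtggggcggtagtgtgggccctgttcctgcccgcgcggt
LDHA: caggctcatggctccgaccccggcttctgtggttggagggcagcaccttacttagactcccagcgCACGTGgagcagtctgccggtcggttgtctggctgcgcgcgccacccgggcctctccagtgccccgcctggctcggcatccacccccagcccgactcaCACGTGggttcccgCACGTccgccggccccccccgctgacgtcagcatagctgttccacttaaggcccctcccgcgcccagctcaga
LDHA held 5 matches to ACGTG, HK2 and PGK1 held 2 each with 1 GCGTG, and ALDOA held 1. Over the whole set, ACGTG was found in 9 of 28 members, against 18.68% of 27305 promoters, and GCGTG in 9 of 28, against 31.91%. Either motif was in 14 of 28 members, against 43.08% of all promoters. Of the other 4 genes that fell in Hs578T BCSCs, PFKL and PFKFB4 held 1 GCGTG each, and SLC2A1 and PGM1 held neither motif in this window. ACGTG was also found in members not called in Hs578T, with 3 matches in ALDOC, 2 in GAPDH, and 1 each in GPI, ENO2 and PGD. These counts describe letters in a window and not sites that were bound.

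GAPDH, which turns glyceraldehyde 3-phosphate into 1,3-bisphosphoglycerate, was a reference gene of the study's RT-qPCR as well as a member, so its primers are shown. The forward primer crosses exons 4 and 5 of transcript GAPDH-201 in GENCODE 44 (chr12:6536788-6536937, intron included) and the reverse primer lies in exon 6 (chr12:6537181-6537203).
GAPDH F: ggagcgagatccctccaaaat
GAPDH R: ggctgttgtcatacttctcatgg
The forward primer matched 6 and the reverse primer 10 of the 11 GAPDH transcripts.

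Libraries held 15971297 to 51018667 reads each, as recovered from the deposited values. Members were read deeply in most conditions, with 2 to 204838 reads per library in the sg1 experiment and 0 to 167713 in the sorted lines. KIF20A, the targeted gene, was at 153, 173 and 156 in sgCtrl and at 122, 145 and 91.1 in sg1 libraries, on a signal close to CPM. All 3 sg1 libraries lay below all 3 sgCtrl libraries. The log2 fold change of KIF20A RNA was -0.45 ± 0.16 (SE, n = 3 per group). Its adjusted p over all genes was 0.69 by limma, so the difference in RNA did not pass the test. KIF20A protein was not measured here, and the paper followed it by immunoblot in sgRNA-infected MDA-MB-231 cells. In the OE experiment KIF20A was at 1348, 269 and 896 CPM in the OE libraries and at 101, 143 and 124 CPM with EV.

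These OE libraries went against their cell line label. Of 12 genes high in mesenchymal-like TNBC lines such as MDA-MB-231, 12 were lower than in EV, and their summed level was 9035 to 9716 CPM with EV and 495 to 943 CPM in the OE libraries. CD44, the hyaluronan receptor used in the sort, was at 788, 615 and 523 CPM with EV and at 0.125, 0.316 and 1.23 CPM in OE. Of 8 genes known from embryonic kidney lines, 7 were higher in the OE libraries, where the list summed to 1822 to 2374 CPM against 72.4 to 81.8 CPM with EV. IRS4, an adaptor of insulin signalling, was at 0 in every EV library and at 1571 ± 305 CPM in OE. Since all 3 OE libraries share this, no result of that comparison could be given without them, and KIF20A and the identity of the cells cannot be told apart there.

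In the sorted lines, where TPM allows levels of genes to be compared, GAPDH was the most abundant member in every fraction. Its mean level was 7213 ± 197 TPM (SD, n = 3) in Hs578T non-BCSCs and 6752 ± 624 TPM in BCSCs, and it was 3625 ± 339 and 4228 ± 99.2 TPM in HCC70. The next in order was ENO1, an enolase, with 3257 ± 88.7 and 2959 ± 318 TPM in Hs578T and 1819 ± 241 and 2068 ± 117 TPM in HCC70. After these came LDHA, PKM and LDHB in Hs578T, and PKM, ALDOA and PGK1 in HCC70. PKM is the last step to pyruvate. In Hs578T non-BCSCs, TPI1, PGK1 and TKT followed at 998 ± 21.1, 955 ± 18.0 and 935 ± 48.7 TPM, and the libraries of PGK1 and TKT overlapped. In both fractions, 5 members of Hs578T and 4 of HCC70 averaged at least 1000 TPM, and 26 members of each line averaged at least 10 TPM. Levels of the lines come from separately normalized tables.

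The lines used different isozymes at several steps. LDHB, the heart-type lactate dehydrogenase, was at 1182 ± 49.7 TPM in Hs578T non-BCSCs and at 1.47 ± 0.123 TPM in HCC70 non-BCSCs, so LDHA made up 66.0 ± 0.338% of the summed LDHA and LDHB level in the first and 99.6 ± 0.0440% in the second. Among the phosphofructokinases, which commit glucose to glycolysis, PFKP made up 72.2 ± 0.425% in Hs578T non-BCSCs, while PFKL made up 65.2 ± 1.09% in HCC70 non-BCSCs. PFKFB2, one of the bifunctional enzymes that set the activator fructose 2,6-bisphosphate, was at 2.11 ± 0.0910 TPM in Hs578T non-BCSCs and at 55.2 ± 2.73 TPM in HCC70 non-BCSCs. SLC16A1, a lactate carrier, exceeded SLC16A3 in both lines, with 159 ± 6.79 against 9.91 ± 0.342 TPM in Hs578T non-BCSCs and 55.8 ± 3.12 against 11.8 ± 0.884 TPM in HCC70 non-BCSCs. SLC2A3 was below 1 TPM in all 12 sorted libraries. No test was made between the lines, which are also the batches.

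The comparison of BCSCs with non-BCSCs of Hs578T asked which genes of the set change with the sorted state. Of 30 members tested, 8 were lower in BCSCs and 0 were higher, while 7.15% of all genes tested were called (4.26% lower and 2.9% higher). The 8 ran along the pathway: the glucose carrier SLC2A1, the hexose enzymes HK2 and PGM1, PFKL and PFKFB4, ALDOA and PGK1, and LDHA. The fold changes were small, from -0.61 to -0.25 on the log2(TPM + 1) scale. The median over the 30 members was -0.12, and it was -0.01 over all genes. Without non-BCSC library 2 or BCSC library 1, 5 of the 8 were called, and PGM1, PFKL and ALDOA were not. SLC2A1, HK2, PFKFB4, PGK1 and LDHA passed under each of 14 alternatives.

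SLC2A1, also known as GLUT1, was at 53.6, 53.7 and 54.2 TPM in non-BCSCs and at 37.3, 37.5 and 39.1 TPM in BCSCs. The groups did not overlap, and the log2 fold change was -0.49 ± 0.04 (SE, n = 3 per group), with an adjusted p of 0.00104 by limma. HK2, the inducible hexokinase, was at 13.8, 14.5 and 14.4 TPM and at 10.7, 11.1 and 11.1 TPM in the same order. It fell by 0.35 on the log2 scale with no overlap (adjusted p = 0.00701), while HK1, the hexokinase most cells express, was at 123 ± 5.13 and 120 ± 5.68 TPM and its groups overlapped. PGM1 links glycogen to glucose 6-phosphate. It was at 71.9, 70.9 and 69.7 TPM in non-BCSCs and at 59.2, 58.9 and 59.7 TPM in BCSCs, and fell by 0.25 (adjusted p = 0.00953). GPI was at 117 ± 3.68 and 109 ± 7.54 TPM, with overlap.

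The phosphofructokinase step held PFKFB4, the largest log2 fold change of the 30 tested members. SLC2A3, too low to test, was at 0.479, 0.427 and 0.346 TPM in non-BCSCs and at 0.0593, 0.0963 and 0.108 TPM in BCSCs, all below, from 3 to 22 reads per library. PFKFB4 was at 31.3, 30.6 and 31.2 TPM in non-BCSCs and at 20.8, 18.3 and 21.1 TPM in BCSCs. Each BCSC library lay below each non-BCSC library, and the log2 fold change was -0.61 ± 0.06 (adjusted p = 0.00195). PFKL was at 68.2, 71.5 and 77.4 TPM and at 59.2, 62.6 and 55.4 TPM, with a log2 fold change of -0.29 ± 0.06 and an adjusted p of 0.0377. That call was the weakest of the 8 and held under 5 of 14 alternatives. PFKP, PFKM, PFKFB2 and PFKFB3 had log2 fold changes of 0.07, -0.15, 0.13 and -0.09 and were not called. The share of PFKFB4 in the 3 PFKFB genes was 37.8 ± 1.15% in non-BCSCs and 29.3 ± 0.741% in BCSCs.

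From aldolase to pyruvate, 8 of the 9 members had a negative log2 fold change and 2 of them passed the test. PGK1, the first ATP-forming step, was at 964, 968 and 935 TPM in non-BCSCs and at 731, 666 and 765 TPM in BCSCs. It did not overlap and fell by 0.41 on the log2 scale (adjusted p = 0.00697). ALDOA, the main aldolase, was at 746, 786 and 799 TPM and at 638, 608 and 659.6 TPM, which was -0.29 ± 0.05 (adjusted p = 0.0147). PGAM1, the phosphoglycerate mutase, missed the threshold with -0.28 ± 0.07 and an adjusted p of 0.0503. ENO2, PKM, TPI1, ENO1 and GAPDH were at -0.24, -0.25, -0.17, -0.14 and -0.10, not called, though under quantile normalization GAPDH was 0.11 and called higher and ENO1 was 0.03, and ALDOC, at about 1 TPM, was at 0.09. PKM and ENO2 did not overlap between the fractions, and TPI1, ENO1 and GAPDH did.

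LDHA and LDHB went apart at the last step. LDHA, which favours lactate, was at 2351, 2293 and 2226 TPM in non-BCSCs and at 1688, 1657 and 1791 TPM in BCSCs. It fell by 0.42 on the log2 scale with a standard error of 0.05 (adjusted p = 0.00322). LDHB was at 1233, 1177 and 1134 TPM and at 1294, 1234 and 1369 TPM. Every LDHB value of BCSCs lay above every value of non-BCSCs. The log2 fold change of 0.14 ± 0.06 did not pass the limma test (adjusted p = 0.196). On recovered reads LDHB was called higher by edgeR (adjusted p = 0.0308) and by DESeq2 (adjusted p = 0.00316). The LDHA share of the pair was 65.6, 66.1 and 66.2% in non-BCSCs and 56.6, 57.3 and 56.7% in BCSCs. The 3 shares of a fraction lay close together and the fractions did not overlap. SLC16A1 and SLC16A3 were at -0.05 and 0.08, with overlap in both.

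None of the 6 pentose phosphate members passed the test in Hs578T. TKT, the transketolase, had the largest log2 fold change of them, -0.13 ± 0.05 (adjusted p = 0.165), with 886, 934 and 984 TPM in non-BCSCs and 858, 830.4 and 864 TPM in BCSCs. Its groups did not overlap. TALDO1, PGD, PGLS, RPIA and RPE lay between -0.09 and 0.13. Over all 30 members, 15 had every BCSC value below every non-BCSC value and 2 had every value above, while 17% of all genes tested lay wholly below and 12% wholly above. BCSC library 3 held the highest value of its fraction for 24 of the 30 members and BCSC library 2 the lowest for 21. Most members thus had their extreme BCSC values in the same libraries. No such count was made over all genes.

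**Figure D1:**
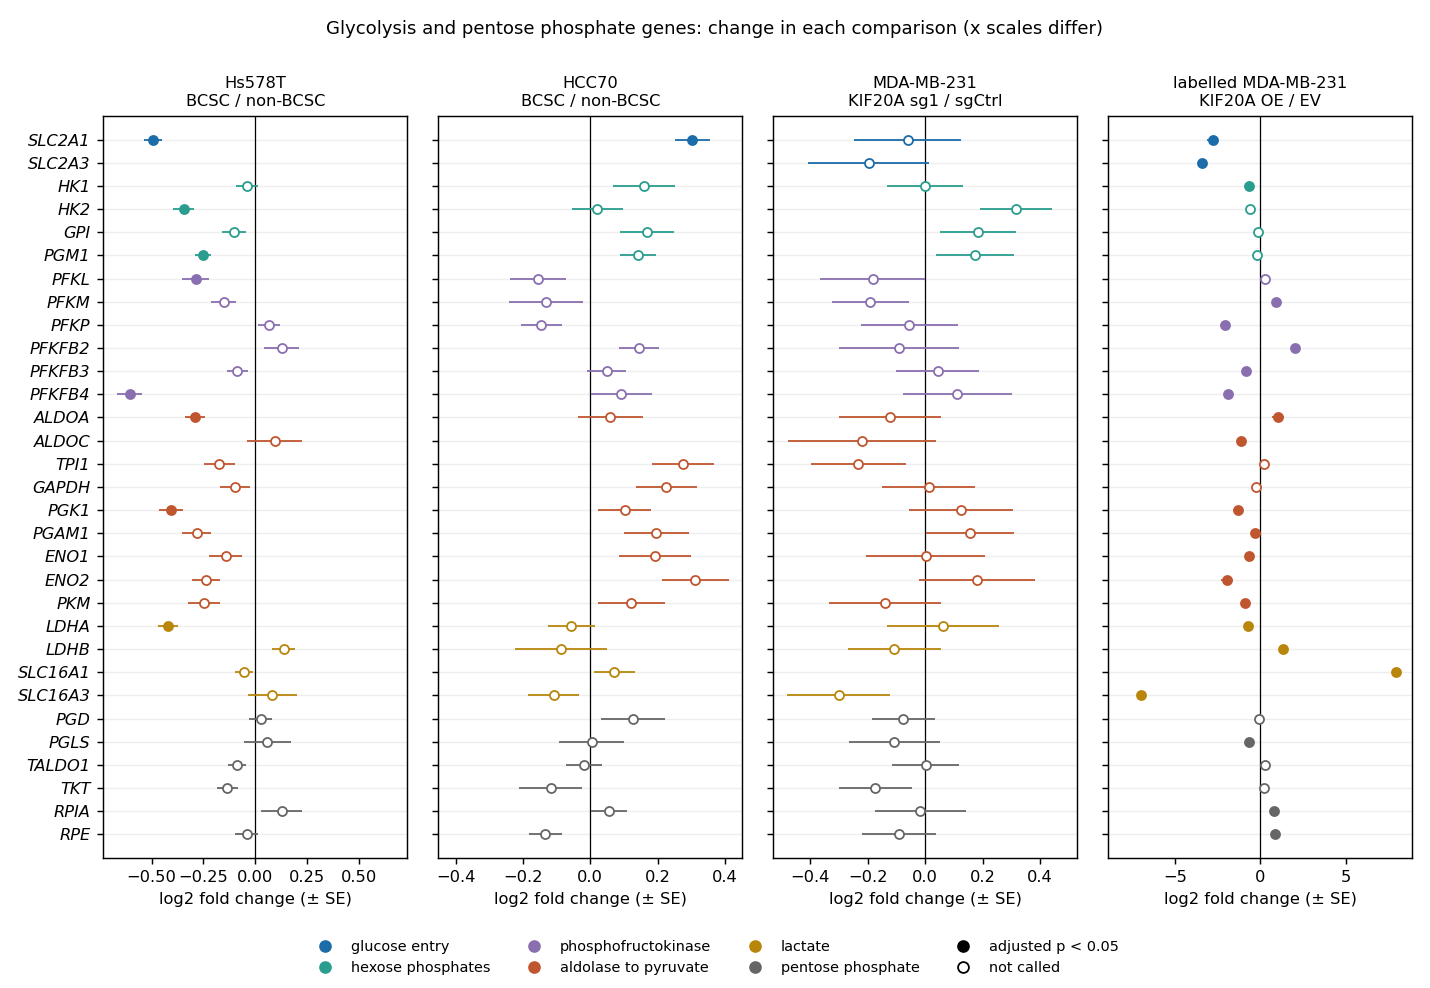
Log2 fold change of each member (rows, colored by step of the pathway) in the 4 comparisons (panels), with bars of 1 SE from limma (n = 3 per group) and x scales that differ between panels. Filled points passed an adjusted p of 0.05, with the share of all genes tested in parentheses. They were 8 of 30 in Hs578T (7.15%), all lower, and 1 of 29 in HCC70 (2.83%). With KIF20A sg1 they were 0 of 30 (0%), and with the libraries labelled KIF20A OE 22 of 31 (69.7%).

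HCC70 showed no such fall. Of 29 members tested, 1 was higher in BCSCs and 0 were lower, where 2.83% of all genes tested were called (2.28% higher and 0.552% lower). The median of the members was 0.07, beside 0.02 over all genes. SLC2A1 was the gene called. It was at 64.9, 70.1 and 68.2 TPM in non-BCSCs and at 82.3, 83.1 and 86.0 TPM in BCSCs, with no overlap, a log2 fold change of 0.30 ± 0.05 and an adjusted p of 0.0314. The call was lost without any 1 of the 6 libraries and under median-of-ratios or quantile scaling. It was also lost with a replicate block, which takes same-numbered libraries as pairs. The direction stayed, and the log2 value ranged from 0.26 to 0.33.

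The other steps in HCC70 gave values but no calls. ENO2, the neuronal enolase, was at 8.93, 9.86 and 11.6 TPM in non-BCSCs and at 13.7, 12.1 and 12.5 TPM in BCSCs, which was 0.31 ± 0.10 (adjusted p = 0.12). TPI1 and GAPDH, at 0.28 and 0.23, also had every BCSC value above every non-BCSC value. GPI, which was at 175, 217 and 205 TPM and at 217, 223 and 229 TPM, was the largest of the hexose group at 0.17 ± 0.08. All 8 tested members from aldolase to pyruvate were positive in value, from 0.06 for ALDOA to 0.31 for ENO2. PFKL was the largest at its step with -0.16 ± 0.08, from 88.9, 90.7 and 84.1 TPM to 78.6, 88.5 and 70.4 TPM, and its groups overlapped. LDHA was at 382, 377 and 422 TPM in non-BCSCs and 368, 362 and 406 TPM in BCSCs. Those LDHA values overlapped (-0.06 ± 0.07), unlike in Hs578T.

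Among the carriers and the pentose phosphate genes of HCC70, SLC16A3 was at 12.7, 11.9 and 10.9 TPM in non-BCSCs and at 11.3, 11.1 and 10.3 TPM in BCSCs, with overlap. RPE, an epimerase of the pentose phosphates, was at 71.5, 67.7 and 70.3 TPM and at 63.3, 62.8 and 64.5 TPM. It did not overlap, with -0.13 ± 0.05 and an adjusted p of 0.153, and 23.8% of its exon bases face KANSL1L on the other strand in GENCODE 44. In all, 8 members had every BCSC value above and 2 had every BCSC value below, of 20.9% and 10.1% among all genes tested, so these counts were near the background. SLC2A3, at 0.0075 and 0.0064 TPM, and ALDOC, at 0.715 and 1.07 TPM, were too low to test.

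**Figure D2:**
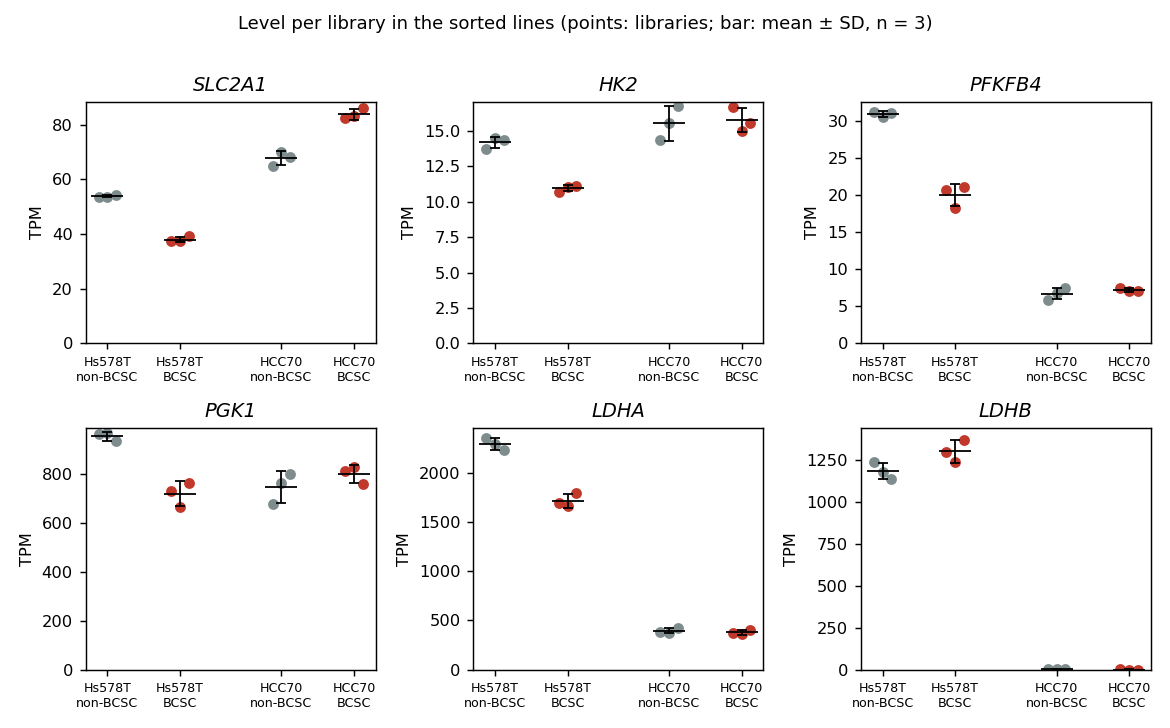
Level in TPM (y axis from 0) of 6 members in each sorted library (points, gray for non-BCSCs and red for BCSCs), with the mean and SD over 3 libraries. In Hs578T, SLC2A1, HK2, PFKFB4, PGK1 and LDHA were lower in all 3 BCSC libraries, in HCC70 SLC2A1 was higher, and LDHB was at about 1.4 TPM in HCC70.

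Whether the lines differed was tested by the interaction of fraction and line over the 12 sorted libraries. Of 29 members, 8 differed in their BCSC effect, while 7.11% of 11668 genes did. In each of the 8 the effect in HCC70 was above that in Hs578T: SLC2A1 by 0.80 ± 0.06, PFKFB4 by 0.70 ± 0.11, ENO2 by 0.55 ± 0.12, PGK1 by 0.51 ± 0.10, PGAM1 by 0.48 ± 0.13, PGM1 by 0.39 ± 0.06, HK2 by 0.37 ± 0.09 and LDHA by 0.36 ± 0.09 on the log2 scale. Over all members the difference was positive for 23 of 29, with a median of 0.20, and over all genes for 6772 of 11668, with a median of 0.04. SLC2A1, PGM1 and PFKFB4 passed under every alternative, and only these 3 were called with the replicate block. The number of members called was 4 without Hs578T non-BCSC library 2, Hs578T BCSC library 1 or 2, or HCC70 BCSC library 1. It was 5 without Hs578T non-BCSC library 1 or 3, HCC70 non-BCSC library 1 or HCC70 BCSC library 3. Line and batch cannot be told apart in this test.

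**Figure D3:**
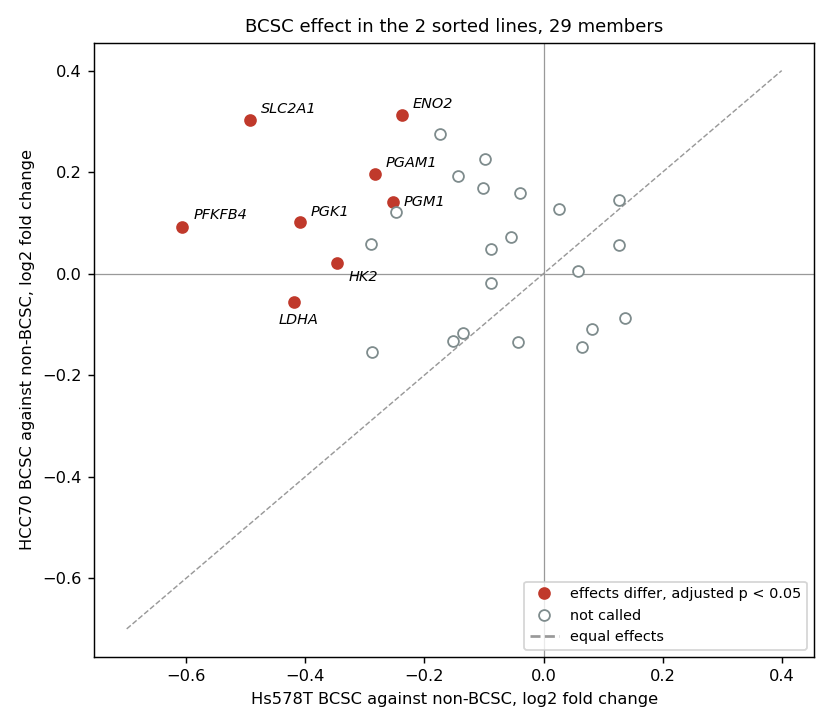
Log2 fold change of BCSCs against non-BCSCs in Hs578T (x axis) and in HCC70 (y axis) for the 29 members tested in both lines, with the line of equal effects dashed. The 8 members in red differed between the lines (adjusted p below 0.05), as did 7.11% of all genes tested. All 8 lie above the dashed line, with SLC2A1 at -0.49 and 0.30.

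Neighbouring genes of the pathway that are not members were called at a share near that of all genes in the sorted lines. Of 41 such genes, 23 were tested in Hs578T, with 1 higher and 1 lower, beside 7.15% of all genes called. PGM2L1, which makes glucose 1,6-bisphosphate, rose by 0.26 and SLC2A12, a glucose carrier, fell by 0.72. In HCC70 1 of 23 was higher, beside 2.28% of all genes: PCK2, the mitochondrial PEP carboxykinase, at 0.41.

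HIF targets outside glycolysis were read in the same libraries. In Hs578T 12 of 16 were lower in BCSCs and 0 higher, with a median of -0.40, against 4.26% of all genes called lower. CA9, a carbonic anhydrase, fell by 1.28 and PDK1, a pyruvate dehydrogenase kinase, by 0.67. In HCC70 3 of 14 were higher and 0 lower, with a median of 0.17, against 2.28% of all genes called higher. NDRG1 was at 0.41 and ANKRD37 at 0.46. In the interaction test 9 of 14 differed, against 7.11% of all genes, all with the higher effect in HCC70. Of 79 nuclear-encoded OXPHOS subunits, 3 were lower in Hs578T BCSCs, with values from -0.28 to 0.30 and a median of -0.03, and 2 were lower in HCC70 BCSCs, with values from -1.26 to 0.34 and a median of -0.04. None was called higher by limma in either line, and 16 of 79 lay wholly below in HCC70, against 10.1% of all genes. The shares of all genes called lower were 4.26% and 0.552%. NDUFA12 fell by 0.28 and NDUFB2 by 0.19 in Hs578T, and ATP5F1D by 0.71 and NDUFB7 by 0.61 in HCC70.

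**Figure D4:**
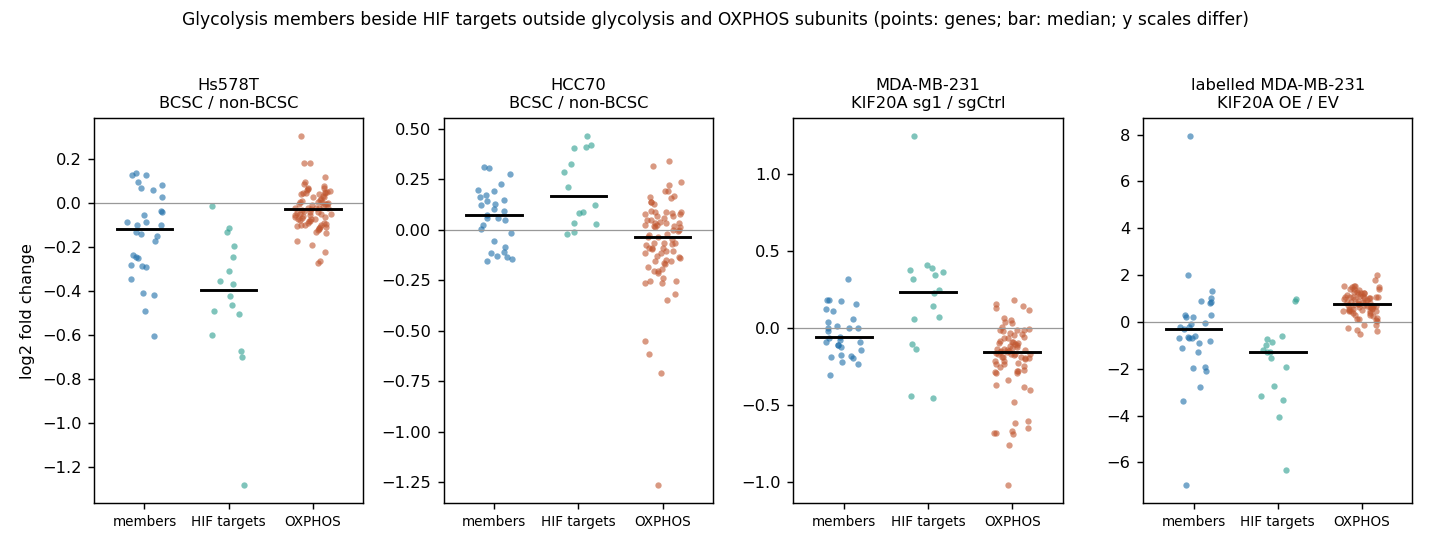
Log2 fold change (y axis, scales differ between panels) of each tested gene among the members, the HIF targets outside glycolysis and the OXPHOS subunits, with bars at the medians. In Hs578T the medians are -0.12, -0.40 and -0.03, with KIF20A sg1 -0.06, 0.24 and -0.16, and with the libraries labelled KIF20A OE -0.31, -1.30 and 0.76.

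The sg1 comparison asked what KIF20A depletion does to these genes in MDA-MB-231. No member was called among 30 tested, in a table where 0 of 12852 genes (0%) passed by limma, 899 (7%) had an unadjusted p below 0.05, edgeR called 0 genes and DESeq2 called 2 higher and 9 lower. Only HK2 among the members had an unadjusted p below 0.05. It was at 107, 87.5 and 88.9 in sgCtrl and at 112, 114 and 126 in sg1 libraries, all above, with a log2 fold change of 0.32 ± 0.12 and an adjusted p of 0.69. HK2 was the 1 member wholly above sgCtrl and PGD the 1 wholly below, beside 5.73% and 7.3% of all genes. The median of the members was -0.06, beside 0.00 over all genes. It was 0.02 without sg1 library 3, 0.01 without sgCtrl library 2 and -0.10 without sg1 library 2, so its sign rested on single libraries.

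Other than HK2, no member moved by more than 2 times its standard error. SLC2A3 was at 18.7, 36.9 and 29.9 in sgCtrl and 25.4, 24.0 and 22.3 in sg1 libraries, which overlapped. PFKM was at 63.6, 56.3 and 50.0 and at 50.0, 45.1 and 53.0, and TPI1 at 564, 622 and 472 and at 508, 532 and 378, with overlap in both. SLC16A3 had the largest negative value, -0.30 ± 0.18, from 668, 708 and 448 to 499, 528 and 428. TKT, at 540.04, 561 and 484 and at 448, 506 and 452, was at -0.17 ± 0.13 and overlapped. LDHA was at 1397, 1635 and 1489 in sgCtrl and at 1677, 1944 and 1183 in sg1 libraries, where 2 libraries lay above all controls and 1 below all. SLC2A1 followed the same order within sg1, at 683, 944 and 549. PGK1 did too, at 1324, 1511 and 980. Over the 30 members sg1 library 2 held the highest value for 20 and sg1 library 3 the lowest for 21. Their KIF20A levels of 145 and 91.1 ran in the same order. So did the recovered reads and the column sums of the sg1 libraries, and these sums were not scaled to be equal. What set the order was not tested, and extremes over all genes were not counted.

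**Figure D5:**
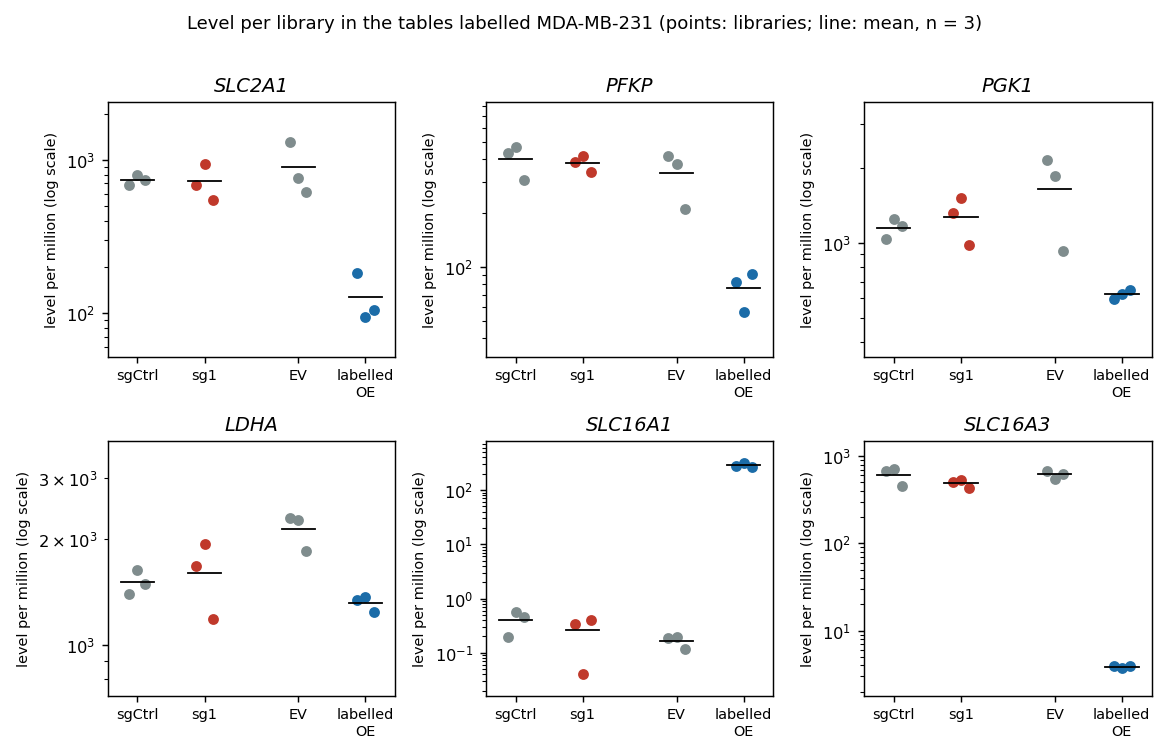
Level of 6 members in each library of the experiments labelled MDA-MB-231 (points; y axis on a log scale, a signal near CPM for sgCtrl and sg1 and CPM for EV and OE), with a line at the mean of 3 libraries. The sg1 libraries overlap sgCtrl in all 6, while SLC16A1 went from 0.167 to 287 CPM and SLC16A3 from 619 to 3.88 CPM in the libraries labelled KIF20A OE.

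The neighbouring lists were likewise without calls with sg1. Of 24 other pathway genes 0 passed, of 16 HIF targets 0 passed with a median of 0.24, and of 78 OXPHOS subunits 0 passed with a median of -0.16. Among the 78 OXPHOS subunits 15 had an unadjusted p below 0.05, against 7% of all genes, and 27 lay wholly below sgCtrl, against 7.3% of all genes. In all, 68 of the 78 values were negative. Among the 16 HIF targets 5 had an unadjusted p below 0.05, against 7% of all genes, and 12 values were positive and 4 negative. Of these 16, 2 lay wholly above sgCtrl and 1 wholly below, beside 5.73% and 7.3% of all genes. The glycolysis members had 17 negative and 13 positive values. Standard errors of the members ran from 0.11 for PGD to 0.26 for ALDOC.

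In the comparison of the libraries labelled KIF20A OE with EV, 22 of 31 members passed the test, 7 higher and 15 lower, where 69.7% of all genes passed (46.2% higher and 23.4% lower). The groups did not overlap for 7 members with every OE value above and 16 with every OE value below, beside 74.1% of all genes (48.9% above and 25.2% below). All genes had a median log2 fold change of 0.37, so values near 0 were below the median of the table. With median-of-ratios scaling applied (called rescaled here), the all-gene median was 0.04, 5218 genes were higher and 4968 lower, in place of 7055 and 3579, and members were 6 higher and 20 lower. The median of the members was -0.31 and, rescaled, -0.68. What follows describes these libraries and not KIF20A alone.

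Lactate carriers gave the largest differences. SLC16A1, or MCT1, was at 0.190, 0.193 and 0.118 CPM with EV, which is 4, 4 and 2 reads, and at 279.9, 316 and 264 CPM in OE. From the pooled reads the ratio was 1695, with an exact 95% interval of 922 to 3536 that covers counting error only. SLC16A3, or MCT4, went the other way, from 682, 547 and 627 CPM to 3.94, 3.74 and 3.96 CPM, which was 159.8-fold lower in OE by pooled reads (exact 95% interval 140.0 to 183). Neither carrier overlapped between the groups. In the sg1 experiment, whose control is also labelled MDA-MB-231, SLC16A1 was at 0.404 ± 0.185 and SLC16A3 at 608 ± 140 in sgCtrl, near their EV values.

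Glucose carriers were lower in OE. SLC2A3 was at 175, 158 and 130.3 CPM with EV and at 21.5, 11.3 and 10.2 CPM in OE, with a log2 fold change of -3.40 ± 0.26 (adjusted p = 1.06e-05). SLC2A1 was at 1298, 763 and 613 CPM and at 183, 94.7 and 105 CPM, or -2.78 ± 0.32 (adjusted p = 0.000101). Both were lower in each library. In the hexose group, HK1 was at 385, 316 and 280.5 CPM and at 227, 181 and 221 CPM, or -0.64 ± 0.15, and HK2, GPI and PGM1 were not called but passed the test after rescaling, at -0.96, -0.48 and -0.58.

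Phosphofructokinase genes split in OE. PFKP was at 421, 376 and 213 CPM with EV and at 83.0, 56.2 and 91.2 CPM in OE, or -2.09 ± 0.28, and PFKFB4 and PFKFB3 fell by 1.92 and 0.83. PFKFB2 rose by 2.02 and PFKM by 0.91, and both stayed higher after rescaling at 1.67 and 0.54. PFKL was not called, and its sign differed between the scalings (0.30 and -0.06).

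From aldolase to pyruvate, 6 of 9 members were lower. ENO2 was at 389, 337 and 248 CPM with EV and at 136, 46.1 and 83.2 CPM in OE, or -1.97 ± 0.35. PGK1 was at 2144, 1847 and 931 CPM and at 597, 627 and 649 CPM. It fell by 1.31 with no overlap, though EV library 3 lay well below the other EV libraries. PKM, ENO1 and PGAM1 fell by 0.91, 0.68 and 0.31, and ALDOC went from 28.0 ± 6.65 to 12.6 ± 3.36 CPM (adjusted p = 0.00419). The PGAM1 call was lost under 6 of 14 alternatives, among them quantile normalization (-0.12, adjusted p = 0.384) and without EV library 2 or any 1 OE library. ALDOA was called higher, from 3.28 ± 1.28 to 7.98 ± 3.74 CPM, but not after rescaling, by edgeR or DESeq2, or without EV library 3 or OE library 1 or 2. GAPDH, the RT-qPCR reference, was at 1650, 1898 and 1655 CPM and at 1494, 1365 and 1541 CPM, not called at -0.24 and called lower after rescaling at -0.61.

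LDHA was at 2300, 2272 and 1846 CPM with EV and at 1343, 1370 and 1243 CPM in OE, a fall of 0.69 (adjusted p = 0.0018), while LDHB rose from 53.6, 84.7 and 62.1 to 168, 167 and 161 CPM, by 1.32. Both passed under each of 14 alternatives. Of the pentose phosphate genes RPE, at 33.3, 42.9 and 40.7 CPM and at 72.6, 60.7 and 79.1 CPM, rose by 0.85 and RPIA by 0.81, while PGLS fell by 0.68. PGD, TALDO1 and TKT were not called, at -0.06, 0.28 and 0.19, and TALDO1 and TKT turned negative after rescaling.

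The lists around them were read in the same libraries, where 46.2% of all genes were called higher and 23.4% lower. Of 26 other pathway genes 11 were higher and 5 lower, which is near those shares. TIGAR, a fructose bisphosphatase, rose by 2.30, while the gluconeogenic FBP1 fell by 4.23 and PC fell by 2.78. Of 16 HIF targets 13 were lower and 2 higher, with a median of -1.30. ANGPTL4 fell by 6.34 and CA12 by 2.72, whereas PDK1 rose by 0.99. Of 76 OXPHOS subunits 62 were higher and 1 lower, with a median of 0.76, and 0.40 after rescaling. NDUFB9 rose by 2.02 and NDUFB10 by 1.80, and NDUFS4 fell by 0.53. The 12 TNBC line markers and 7 embryonic kidney line genes given above moved with all of these values, and their part in the result was not tested.

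Counting limits bear on ALDOA and LDHB. In GENCODE 44, 42.8% of the exon bases of ALDOA are shared on the same strand with ENSG00000285043, and 33.4% of those of LDHB with ENSG00000285854. ALDOA was listed at 11.4 ± 1.32 in sgCtrl and 3.28 ± 1.28 CPM with EV, against 777 ± 27.6 TPM in Hs578T non-BCSCs, and LDHB at 10.4 ± 1.65 in sgCtrl. ENSG00000285043 itself was at 3.60 ± 0.626 in sgCtrl. ENSG00000285854 was listed at 0 in every sgCtrl and sg1 library. How reads on shared bases were counted is not given in the sources used here, so the values of ALDOA and LDHB in the MDA-MB-231 tables are uncertain, and the part of the overlap in them was not tested. Pseudogene copies of members, where listed, held at most 0.436% of the summed level of gene and copies in each table. For the sorted lines, copies were listed for TPI1 and, in Hs578T, PGAM1 alone. These levels cannot show how reads that match both a gene and a copy were counted.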

How the data were processed

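Poly-A RNA of 24 libraries was sequenced in 4 experiments. The submitters' processing notes name HISAT2 2.0.5, featureCounts 1.5.0-p3 and GRCh38. The authors deposited TPM for both sorted lines, a signal for the sg1 experiment (reads divided by 1 factor per library, with column sums of 977394 to 1028621) and CPM for the OE experiment. Every sample column was used (0 left out).

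Groups were taken from the GEO labels, with 3 libraries each. The study's methods call the 3 libraries of a group biological replicates, without saying whether they were separate cultures or sorts, so p-values measure the spread between these libraries. Values were tested as log2(value + 1) with limma 3.58.1 (trend) in R 4.3.3 on genes with a mean of at least 1, adjusted over all genes by Benjamini-Hochberg and called at 0.05. Fold changes on this scale understate the change of low genes. The main test was set for these units and not for counts. Reads recovered from the deposited steps gave the depth and were tested with edgeR 4.0.16 and DESeq2 1.42.0 as alternatives. The scripts were tested on simulated data. Other alternatives were the pseudocount, the filter, median-of-ratios or quantile scaling, a replicate block and leaving out each library. Read intervals cover counting error only.

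All 31 members were described, with values per library for those called in a sorted line or with the largest fold change of their step. From each other list, at most the 2 genes of lowest adjusted p per direction were named. The members and lists were chosen with earlier results of these data known. Gene models were GENCODE 44 and promoters RefSeq GRCh38.p14. The main test did not pair samples by replicate number, since in no comparison did every same-numbered pair correlate above 0.1. These correlations cannot show whether the libraries were prepared in pairs.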

Additional observations from a re-analysis of the deposited data

Results flagged for a closer look

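The BCSC effect differed between HCC70 and Hs578T in 8 of 29 members, beside 7.11% of 11668 genes. The interaction test in limma over 12 libraries gave the adjusted p in parentheses. In each of the 8 the log2 effect was higher in HCC70. The glucose carrier SLC2A1 differed by 0.80 (3.5e-05), HK2 by 0.37 (0.0317) and PGM1 by 0.39 (0.00387). PFKFB4 differed by 0.70 (0.00383), PGK1 by 0.51 (0.0134) and PGAM1 by 0.48 (0.0423). ENO2 differed by 0.55 (0.0254) and LDHA by 0.36 (0.0327). The difference was called under 5 of 18 alternatives for PGAM1, 8 for HK2 and for LDHA, 12 for ENO2 and 17 for PGK1. It was called under every alternative for SLC2A1, PGM1 and PFKFB4. Of these genes, SLC2A1 was called in both lines with opposite directions, though its HCC70 call held under 5 of 14 alternatives. HK2, PGM1, PFKFB4, PGK1 and LDHA were called in Hs578T alone, and PGAM1 and ENO2 in neither. Groups of 3 libraries are too small for a check of single outlying libraries.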

How the results depend on the processing

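Of 2188 single-gene values recomputed under an alternative, 2050 were counted as the same, 76 lost a call, 41 gained one, 20 moved and 1 reversed. A value counted as the same kept its direction and its side of the threshold. Values without a call that changed sign by at most 1 standard error also counted as the same. The reversal was GAPDH in Hs578T, which was 0.11 higher in BCSCs and called under quantile normalization (adjusted p = 0.0182 by limma); the cause was not tested. In Hs578T, 1 member was higher under quantile normalization (GAPDH) and 1 by edgeR and by DESeq2 (LDHB). When 1 library was left out, 5 to 10 were lower. In HCC70, 0 members were higher under median of ratios, quantile normalization and the replicate block, and 0 to 0 when 1 library was left out. The median of the members in OE was -0.45 with a mean of at least 10, -0.68 under median of ratios, -0.12 under quantile normalization, -0.66 by edgeR and -0.66 by DESeq2. Members with a different effect in the lines numbered 3 with the replicate block (SLC2A1, PGM1 and PFKFB4) and 4 to 10 when 1 library was left out.

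With the replicate block 8 members were lower in Hs578T (PGAM1 called in place of PFKL), 0 were called with sg1, and 7 were higher and 15 lower in OE (HK2 in place of PGAM1). Same-numbered libraries correlated by -0.16 to 0.19, which cannot show whether they were prepared in pairs. In the OE experiment each EV library correlated best with the OE library of its number, at 0.01 to 0.06. Over all genes, Hs578T gave 386 higher and 567 lower, against 810 and 834 by edgeR and 144 and 199 without non-BCSC library 2. HCC70 gave 301 and 73, against 643 and 539 by DESeq2, 94 and 34 with the block and 22 and 10 without BCSC library 1. With sg1, 0 genes became 7 higher and 137 lower without sgCtrl library 3. The interaction gave 656 and 174, against 235 and 67 with the block. Depth limits SLC2A3 in sorted cells and SLC16A1 in sgCtrl, sg1 and EV libraries.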
